A study of Mus musculus with 4 samples.

Results

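Histaminergic neurons, the Hdc-expressing cells of the tuberomammillary nucleus, were examined in single-nucleus RNA sequencing of the mouse hypothalamus. They were selected on their Hdc and Snhg11 counts, as nuclei with at least 500 genes, at most 5% of counts from mitochondrially encoded genes, and at least 3 unique molecular identifiers (UMIs, each standing for 1 captured RNA molecule) of Hdc and 3 of Snhg11. Hdc encodes histidine decarboxylase, the enzyme that makes histamine from histidine, and Snhg11 is a long noncoding RNA that is abundant in neurons. The rule found 186 Hdc nuclei among 42948 neuronal nuclei (those with 3 or more Snhg11 UMIs), or 0.433% of them, out of 54422 nuclei past the filters and 56797 barcodes in all. By library there were 38 Hdc nuclei in vehicle 1, 46 in vehicle 2, 51 in ImP 3 and 51 in ImP 4. No nucleus with 3 or more Hdc UMIs failed the Snhg11 criterion or the filters. The 42762 neuronal nuclei outside the rule served as the comparison.

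The tissue came from wild type C57BL/6J mice with a conventional flora, whose titles carry the terms SPF and baseline. The ImP group received imidazole propionate, which gut bacteria form from histidine, at 350 µg per day for 2 weeks through a minipump placed in the peritoneum. The other group received vehicle by the same route, and ImP was made up in sterile water with 1% DMSO. Both groups had the pump surgery with isoflurane, lidocaine and buprenorphine. There were 2 libraries per group, and the labels do not say that each came from a separate animal, so p-values measure the spread between libraries, which may be technical. The whole hypothalamus was dissected and no cells were sorted, so Hdc nuclei are known here only by their transcripts. The sources used here give neither the age nor the sex of the mice. Sets of 4 values below are in the order vehicle 1, vehicle 2, ImP 3, ImP 4.

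Histaminergic neurons are the only neurons in the brain that make histamine. They sit in the posterior hypothalamus, send fibres to most of the brain, fire during waking and fall silent in sleep, and are driven by orexin through the receptor encoded by Hcrtr2. Histamine is made from histidine by Hdc, loaded into vesicles by the transporter encoded by Slc18a2, and broken down by Hnmt and by monoamine oxidase. The cells sense their own transmitter through the H3 receptor, the product of Hrh3. ImP, like histamine, derives from histidine.

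Hdc nuclei were deeper than other neuronal nuclei in every library, with median UMIs per nucleus of 6968.5, 6878.5, 5789 and 5513 against 4507, 3769, 3432 and 3310. Both populations were shallower in both ImP libraries than in both vehicle libraries. The summed counts behind the levels of Hdc nuclei ran from 313086 to 334551 UMIs per library. Of 186 Hdc nuclei, 32 had 3 or more UMIs summed over oligodendrocyte or over astrocyte genes, as had 9920 of 42762 other neuronal nuclei. Doublets were not called. Libraries shared 334 of 56461 distinct barcodes, and 6 barcodes of Hdc nuclei, 3 in vehicle 2 and 3 in ImP 4, also occurred in another library. ImP 4 stood apart by a pituitary transcript. Growth hormone (Gh), a pituitary transcript, had a UMI in 96.1% of its Hdc nuclei, 97.1% of its other neuronal nuclei and 98.5% of its oligodendrocyte nuclei, against 0 to 7.89% of Hdc nuclei in the other 3 libraries.

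The label was set beside 5 markers that the rule had not used. These were Slc18a2, Maob (monoamine oxidase B), Hcrtr2, Wif1 (a secreted inhibitor of Wnt signalling) and Slc16a10 (a transporter of aromatic amino acids). They were chosen with earlier results of these data known, so they give no independent check of the label. At least 3 of the 5 had a UMI in 167 of 186 Hdc nuclei (89.8%) and in 124 of 42762 other neuronal nuclei (0.290%). All 5 were present in 63 Hdc nuclei. The remaining 19 Hdc nuclei had at most 2 of them, 3 in vehicle 1, 5 in vehicle 2, 3 in ImP 3 and 8 in ImP 4. Hdc nuclei were deeper, so shares were also taken after thinning each nucleus to 1000 UMIs. Single markers then had a UMI in 16.2% to 58.9% of Hdc nuclei and 0.186% to 3.69% of other neuronal nuclei. Mast cells also express Hdc, but the mast cell genes Mcpt4, Tpsb2, Cma1, Fcer1a and Ms4a2 were at 0 UMIs in all Hdc nuclei, Cpa3 had 1 UMI and Kit had 5. All 7 pan-neuronal genes other than Snhg11 were higher in Hdc nuclei than in other neuronal nuclei, beside 8.0% of all genes. Their summed level was 15710 to 17000 CPM (counts per 1000000 UMIs of the summed nuclei) against 10840 to 11510 CPM.

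Around the threshold, the 31 nuclei with exactly 3 Hdc UMIs had 3 of the 5 other markers in 74.2% of cases, and the 23 nuclei with exactly 2 Hdc UMIs, which the rule left out, in 47.8%. Among 301 nuclei with 1 Hdc UMI the share was 4.32%, and among 42438 nuclei with none it was 0.236%. The summed level of Slc16a10 ran from 13.8 CPM with no Hdc UMI through 54.1 CPM, 439.6 CPM and 749 CPM at 1, 2 and 3 Hdc UMIs to 1050 CPM at 6 or more. Of all Hdc UMIs, the nuclei that the rule took held 82.0% and 82.3% in the vehicle libraries. In the ImP libraries they held 72.3% and 70.7%. These shares follow from a threshold on Hdc, and nuclei were shallower with ImP, so the shares give no comparison of the groups.

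**Figure D1:**
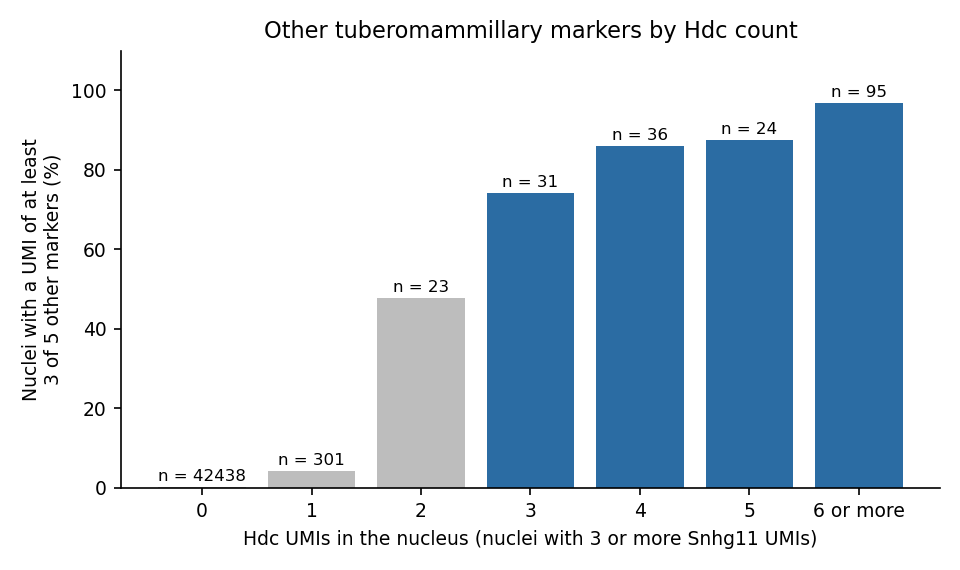
Share of neuronal nuclei with a UMI of at least 3 of the 5 other markers (vertical axis, %) by the number of Hdc UMIs in the nucleus (horizontal axis), pooled over the 4 libraries, with the number of nuclei above each bar. Grey bars lie outside the rule and blue bars inside it, and the share steps from 4.32% at 1 Hdc UMI to 47.8% at 2 and 74.2% at 3.

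Hdc itself, on which the nuclei were chosen, stood at 1019, 942, 892 and 1201 CPM in the Hdc nuclei. It was at 1.48, 1.36, 2.23 and 2.72 CPM in other neuronal nuclei. The latter hold only nuclei below the Hdc threshold, and nuclei were shallower with ImP, so their levels give no comparison of the groups. The median Hdc nucleus held 6, 5.5, 6 and 6 Hdc UMIs, with maxima of 18, 19, 19 and 31. Snhg11 was at 9618 to 11510 CPM in Hdc nuclei against 6910 to 7827 CPM. These values follow from the rule and are given without a test.

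The marker promoters are shown, since their genes were high together in these nuclei. RefSeq's promoter table, on the build GRCm38.p6, held 5 of 6 marker genes. The 250 bases before the annotated start are printed 5′ to 3′ along the gene, with the GC box GGGCGG, on either strand, in capitals.
Hdc (chr2:126618679-126618928, minus strand): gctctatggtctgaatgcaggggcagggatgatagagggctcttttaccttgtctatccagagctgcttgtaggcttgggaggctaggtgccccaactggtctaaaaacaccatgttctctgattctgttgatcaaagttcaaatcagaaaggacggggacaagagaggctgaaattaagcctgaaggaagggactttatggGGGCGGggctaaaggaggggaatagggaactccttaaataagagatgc
Slc18a2 (chr19:59260628-59260877, plus strand): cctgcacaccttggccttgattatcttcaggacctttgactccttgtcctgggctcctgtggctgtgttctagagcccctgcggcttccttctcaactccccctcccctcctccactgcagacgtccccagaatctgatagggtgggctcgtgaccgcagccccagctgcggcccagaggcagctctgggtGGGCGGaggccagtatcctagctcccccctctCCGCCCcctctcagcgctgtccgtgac
Hcrtr2 (chr9:76323624-76323873, minus strand): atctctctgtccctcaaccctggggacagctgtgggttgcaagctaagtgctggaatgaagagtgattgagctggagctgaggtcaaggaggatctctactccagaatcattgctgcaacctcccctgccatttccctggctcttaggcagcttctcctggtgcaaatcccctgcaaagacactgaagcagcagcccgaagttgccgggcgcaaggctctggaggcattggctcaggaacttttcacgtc
Slc16a10 (chr10:40142255-40142504, minus strand): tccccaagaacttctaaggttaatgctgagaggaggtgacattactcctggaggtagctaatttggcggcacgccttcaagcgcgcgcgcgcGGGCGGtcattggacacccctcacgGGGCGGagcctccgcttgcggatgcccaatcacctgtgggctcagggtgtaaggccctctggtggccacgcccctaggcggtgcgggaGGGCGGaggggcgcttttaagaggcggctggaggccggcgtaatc
Wif1 (chr10:121033754-121034003, plus strand): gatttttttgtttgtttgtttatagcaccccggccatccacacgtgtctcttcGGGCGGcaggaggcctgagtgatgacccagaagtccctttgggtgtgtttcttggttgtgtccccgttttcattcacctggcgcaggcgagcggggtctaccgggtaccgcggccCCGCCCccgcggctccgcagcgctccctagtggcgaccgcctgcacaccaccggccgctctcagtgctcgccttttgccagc
The files' own build is GRCm39, so these coordinates belong to the promoter table alone. The GC box occurred on either strand in 4 of the 5 marker promoters, Hcrtr2 being the exception, and in 32.7% of all 32851 promoters over the same 250 bases. It began 48 bases before the start in Hdc, 59 and 27 bases before it in Slc18a2, and 158, 133 and 45 bases before it in Slc16a10. The TATA box TATAAA occurred in 1 of the 5 (12.4% of all promoters), CCAAT in 2 (33.8%) and the cyclic AMP response element TGACGTCA in 0 (1.55%), none of them overlapping a GC box. Such matches describe the letters and do not show that a factor binds.

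The first comparison asked what sets Hdc nuclei apart from the other neurons of the same libraries. UMI counts were summed per library and population, and the edgeR quasi-likelihood test with library as a block and Benjamini-Hochberg adjustment was run over 18426 genes, leaving out Hdc and Snhg11. In Hdc nuclei 1474 genes were higher (8.0%) and 2210 lower (12%) at an adjusted p below 0.05, and the median log2 fold change over all genes was -0.16. DESeq2 gave 1341 higher and 1228 lower, which moved the share of higher calls from 40.01% to 52.2%. Differences of over 2 on the log2 scale in each of the 4 libraries were reached by 254 higher genes (1.38%) and 46 lower genes (0.250%). The fit assigned all genes a common spread, which makes p-values very small, so the values of single libraries are given first.

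The first group was a list of histamine synthesis and storage genes that also held amino acid transporters and Ddc. Uptake of histidine was not measured. The list held 8 genes, 6 of them were tested beside Hdc, and 2 were higher and 1 lower (8.0% and 12% of all genes). Slc16a10 was at 837, 1034, 940.2 and 1007 CPM in Hdc nuclei and at 12.9 to 15.5 CPM in other neurons. All 4 values in Hdc nuclei lay far above all 4 in other neurons, a log2 fold change of 6.05 ± 0.10 (SE, n = 4 libraries). Slc18a2, whose product fills synaptic vesicles with monoamines, was at 444, 400.5, 372.5 and 419 CPM against 19.2 to 24.96 CPM, a log2 fold change of 4.23 ± 0.11 (SE, n = 4 libraries). It had a UMI in 86.6% of Hdc nuclei (median 6285.5 UMIs per nucleus), in 7.75% of other neuronal nuclei (3652 UMIs) and in 2.59% of oligodendrocyte nuclei (1516 UMIs). Ddc, the decarboxylase of dopamine and serotonin synthesis, was lower, with 11 UMIs over all Hdc nuclei, or 19.2, 8.97, 3.004 and 3.18 CPM against 23.0 to 25.9 CPM in other neurons (log2 -1.52 ± 0.39, SE, edgeR adjusted p = 0.000825). The amino acid transporter subunit Slc3a2 (log2 0.19 ± 0.15, adjusted p = 0.442) and its partner Slc7a5 with 11 UMIs (-0.16 ± 0.48, adjusted p = 0.879) did not pass. Slc18a1, the vesicular transporter of endocrine cells, had 3 UMIs in Hdc nuclei.

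Of 9 genes for histamine breakdown and uptake, 8 were tested, 2 were higher and 1 was lower (8.0% and 12% of all genes). Maob, which oxidises methylated histamine, was at 204, 254, 303 and 299 CPM in Hdc nuclei and 6.98 to 8.80 CPM in other neurons. The populations did not overlap in any library, and the log2 fold change was 5.08 ± 0.15 (SE, n = 4 libraries). Maoa, the other monoamine oxidase, was at 169, 155, 198 and 156 CPM against 29.1 to 31.5 CPM (log2 2.49 ± 0.14, SE). Hnmt, the methyltransferase that inactivates histamine, did not pass, at 22.4, 11.96, 21.03 and 12.7 CPM against 18.1 to 20.2 CPM (log2 -0.19 ± 0.33, SE, edgeR adjusted p = 0.760, 22 UMIs). Aldh2, an aldehyde dehydrogenase, was lower on 7 UMIs (log2 -1.47 ± 0.50, adjusted p = 0.0198), a call made in 12 of 18 settings. It was lost with DESeq2 (adjusted p = 0.113), after thinning each nucleus to 3000 UMIs (0.117), with an Hdc threshold of 5 UMIs (0.0637), and without vehicle 1 (0.0762), vehicle 2 (0.0550) or ImP 3 (0.115). The organic cation and monoamine transporters Slc22a3 and Slc29a4, with 1 and 12 UMIs, did not pass, and the diamine oxidase gene Aoc1 had no UMI in Hdc nuclei, which allows up to 2.32 CPM (3 counts over the population).

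Among the 4 histamine receptors, Hrh3, the inhibitory autoreceptor, was higher. It stood at 51.1, 35.9, 33.04 and 60.4 CPM in Hdc nuclei and at 11.03 to 13.5 CPM in other neurons, without overlap (log2 1.85 ± 0.26, SE, edgeR adjusted p = 4.79e-11). Hrh1, the excitatory receptor, was lower on 8 UMIs (log2 -1.56 ± 0.46, adjusted p = 0.00493), which did not pass with DESeq2 (adjusted p = 0.0591) or without vehicle 2 (adjusted p = 0.0651). Hrh2 had 4 UMIs (log2 -1.57 ± 0.67, adjusted p = 0.0794), and passed without the deepest 5% of nuclei (adjusted p = 0.00753), after thinning to 3000 UMIs (adjusted p = 0.0405) and without ImP 3 (adjusted p = 0.0256). Hrh4 had none.

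**Figure D2:**
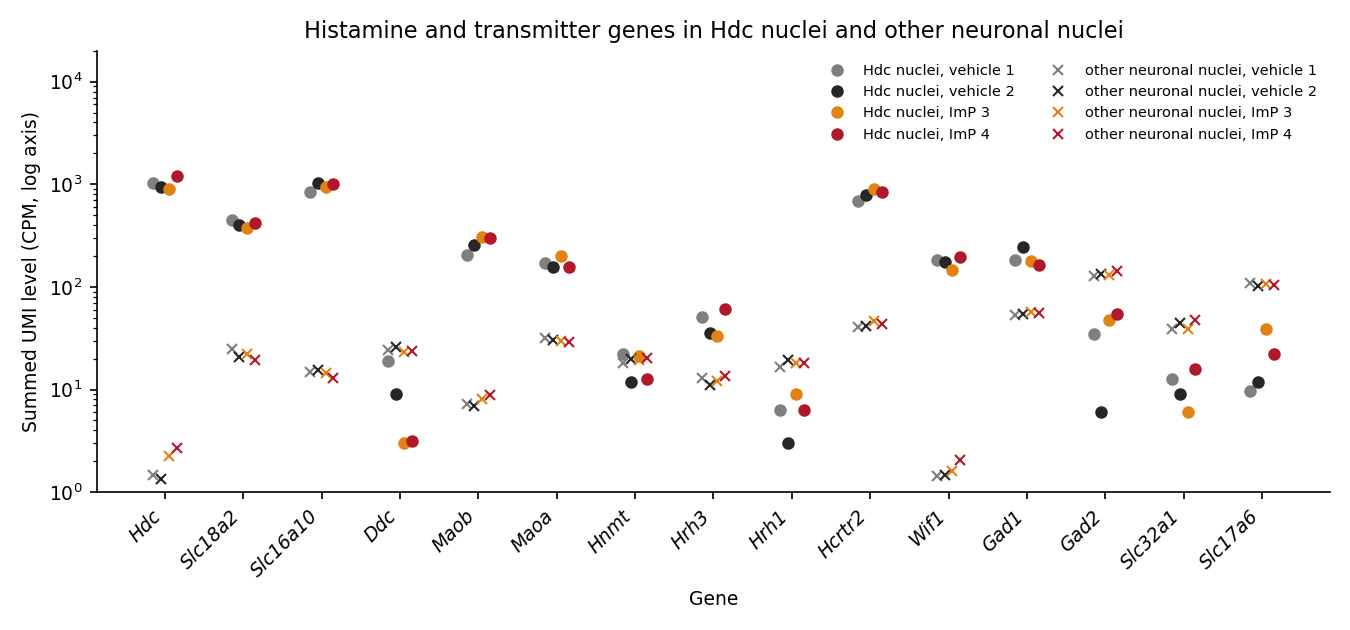
Level of histamine and transmitter genes (summed UMIs in CPM, log axis) in the Hdc nuclei (circles) and other neuronal nuclei (crosses) of each library. Hdc was used by the rule, and for Slc18a2, Slc16a10, Maob, Maoa, Hrh3, Hcrtr2, Wif1 and Gad1 all 4 circles lie above all 4 crosses.

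Hcrtr2 and Wif1 completed the markers. Hcrtr2 was at 684, 792, 904 and 842 CPM in Hdc nuclei and at 40.9 to 47.01 CPM in other neurons, a log2 fold change of 4.21 ± 0.09 (SE, n = 4 libraries). Its relative Hcrtr1 had 1 UMI in all Hdc nuclei, against 1045 UMIs of Hcrtr2. Wif1 was at 182, 176, 147 and 194 CPM against 1.43 to 2.06 CPM, a log2 fold change of 6.73 ± 0.21 (SE), the largest among the named genes.

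The other 10 genes named by size made up, with the 5 markers, the 15 largest fold changes among genes at 100 CPM or more. All 10 lay above Slc18a2 and Hcrtr2. Slc26a4, which encodes the anion exchanger pendrin, was at 131, 126, 108 and 98.5 CPM in Hdc nuclei against 1.02 to 1.39 CPM (log2 6.62 ± 0.26, SE). Fam107b followed at 5.39 ± 0.18 and Egflam, an extracellular matrix protein of synapses, at 4.91 ± 0.21. Hpgd, which inactivates prostaglandins, was at 159.7, 155, 147 and 149 CPM against 4.92 to 7.37 CPM (log2 4.70 ± 0.20, SE), and its 4 libraries lay close together. Npl, an enzyme of sialic acid breakdown, had a log2 fold change of 4.64 ± 0.17 and varied most of these 10 between libraries, from 281 CPM in vehicle 1 to 92.1 CPM in ImP 4. Gpc4, a heparan sulphate proteoglycan, reached 4.58 ± 0.11. Calcrl, the receptor subunit for calcitonin gene-related peptide and adrenomedullin, was at 273 to 358 CPM against 13.2 to 14.8 CPM (log2 4.50 ± 0.13, SE). The kinesin Kif6 (4.49 ± 0.12), the unnamed locus Gm27234 (4.45 ± 0.15) and Msrb2, a repair enzyme for oxidised methionine (4.39 ± 0.12), completed them. Over 18 settings of the analysis, these 10 genes, Slc18a2, Maob, Maoa, Hcrtr2, Wif1, Slc16a10 and Hrh3 passed in all 18.

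Of genes that were lower in Hdc nuclei, the 8 with the largest fold changes had 9 to 71 UMIs each. Gm15261 was at 0, 0, 15.02 and 12.7 CPM in Hdc nuclei against 137 to 148 CPM (log2 -4.36 ± 0.28, SE). Zfp536, a zinc finger repressor, was at 0, 5.98, 39.05 and 3.18 CPM against 128 to 156 CPM, with 13 of its 16 UMIs in ImP 3 (log2 -3.53 ± 0.24, SE). Trpc5, a cation channel, was at 9.58, 5.98, 54.1 and 28.6 CPM against 204 to 238 CPM (log2 -3.16 ± 0.19, SE). The others were A330015K06Rik (-3.73 ± 0.29), Arhgap6 (-3.49 ± 0.24), Sorcs3 (-3.14 ± 0.16), Gm32647 (-3.13 ± 0.15) and the potassium channel Kcnh1 (-3.12 ± 0.26). In 6 of the 8, both ImP libraries lay above both vehicle libraries. This held for 18.1% of the 5941 genes past the count filter of the ImP test, a set unlike these 8, which rest on few UMIs. Gm32647 ranged from 19.2 CPM in vehicle 1 to 133 CPM in ImP 4.

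**Figure D3:**
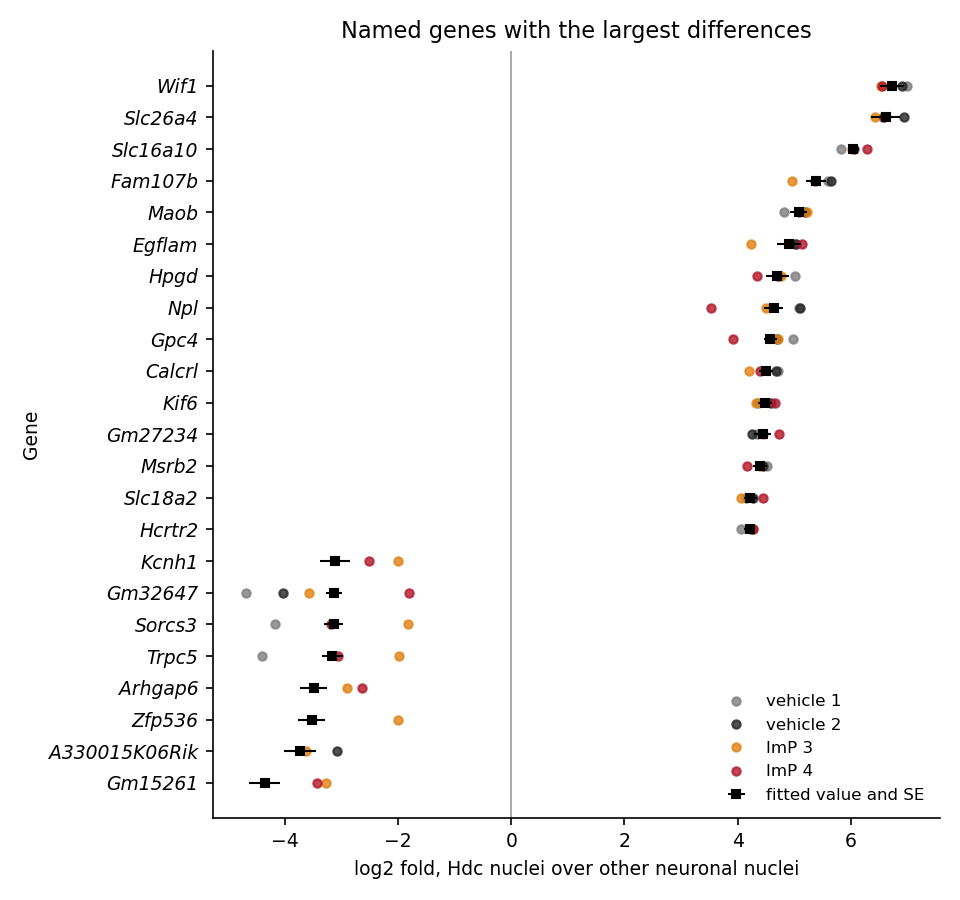
Log2 fold change between Hdc nuclei and other neuronal nuclei (horizontal axis) for the 15 named genes with the largest increases and the 8 with the largest decreases, with the fitted value and its SE (squares and bars) and the ratio in each library with at least 3 UMIs (circles). The 15 increases lie between 4.21 and 6.73, and the libraries spread more for the decreases, which rest on few UMIs.

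Transmitter genes divided Gad1 from Gad2. Of 6 genes of GABA synthesis, storage and uptake, 1 was higher and 4 were lower, beside 8.0% and 12% of all genes. Gad1, 1 of the 2 glutamate decarboxylases that make GABA, was at 182, 242, 177 and 165 CPM in Hdc nuclei against a mean of 55.2 CPM in other neurons (log2 1.79 ± 0.13, SE, edgeR adjusted p = 1.13e-43), and 69.9% of Hdc nuclei had a UMI against 17.2% of other neuronal nuclei and 4.10% of oligodendrocyte nuclei. Gad2, the other, was at 35.1, 5.98, 48.06 and 54.01 CPM against 134.7 CPM (log2 -1.93 ± 0.18, adjusted p = 7.50e-24). Slc32a1, which loads GABA into vesicles, had 14 UMIs and 10.9 CPM against 42.4 CPM (log2 -1.97 ± 0.32, adjusted p = 1.12e-08). It had a UMI in 6.99% of Hdc nuclei and in 7.34% of the shallower oligodendrocyte nuclei. These UMIs alone do not show that Hdc nuclei express it, and the part of free RNA was not tested. Slc6a11, a GABA uptake transporter, was lower (log2 -1.35 ± 0.23), and Abat, which breaks GABA down, did not pass (-0.08 ± 0.14, adjusted p = 0.766). Of 7 genes of glutamate, acetylcholine and glycine transmission, Slc17a6, the vesicular glutamate transporter, was lower at 20.7 CPM against 105.7 CPM (log2 -2.35 ± 0.22). Slc17a7, Slc18a3 and Slc6a5 had no UMI in Hdc nuclei, and Slc17a8, Chat and Slc5a7 had 1 each.

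Of 10 enzymes and transporters of other monoamines, 9 had at most 1 UMI in Hdc nuclei. Th (tyrosine hydroxylase), on 0 UMIs, was lower (edgeR adjusted p = 0.0406), a call made in 6 of 18 settings and lost with DESeq2 (adjusted p = 0.171) and with any 1 library left out (0.112 to 0.138). Th, Dbh, Pnmt, Tph1, Tph2, Slc6a2 and Slc6a4 had no UMI in 186 Hdc nuclei. For Th that is at least 1.56-fold lower than the 3.62 CPM of other neurons (3 counts over the population), and 0 of 186 nuclei allows a share with a UMI of up to 1.61%. Dbh, Pnmt, Tph1, Tph2, Slc6a2 and Slc6a4 were at a mean of only 0.0228 to 0.199 CPM in other neurons as well. Their 0 UMIs therefore do not set Hdc nuclei apart. Slc6a3 and Gch1 had 1 UMI each, and were at a mean of 0.711 and 1.94 CPM in other neurons. The exception was Pts, a synthase of the cofactor tetrahydrobiopterin, with 35 UMIs at 31.9, 47.8, 21.03 and 6.35 CPM against a mean of 21.2 CPM, which did not pass (log2 0.34 ± 0.28, adjusted p = 0.441).

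Of 32 neuropeptide genes tested, 0 were higher (against 8.0% of all genes) and 20 were lower (against 12%). Their median log2 fold change was -1.27. Scg2, a granin (log2 -1.48 ± 0.12), Pmch, the precursor of melanin-concentrating hormone (-1.09 ± 0.13), and Chgb (-1.31 ± 0.17) were examples. Gal, galanin, was at 15.97, 8.97, 30.04 and 73.1 CPM against a mean of 73.7 CPM (log2 -1.23 ± 0.21, SE), and had a UMI in 19.9% of Hdc nuclei, 21.6% of other neuronal nuclei and 13.4% of oligodendrocyte nuclei. Peptide transcripts were also widespread outside neurons, since Pmch had a UMI in 52.2% of Hdc nuclei and in 50.5% of oligodendrocyte nuclei, and Hcrt, the orexin precursor, in 27.96% and 24.8%. Of 16 genes for peptide processing and secretion, 2 were higher and 9 lower, beside 8.0% and 12% of all genes. Pcsk1, a prohormone convertase, was higher (log2 0.85 ± 0.15) and its relative Pcsk2 lower (-1.85 ± 0.12), at 77.7 to 198 CPM against a mean of 438.5 CPM.

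Of 28 arousal-related receptors tested, 2 were higher and 13 lower, beside 8.0% and 12% of all genes. Beside Hcrtr2, the galanin receptor Galr1 was higher, at 11.96 to 25.4 CPM against 7.18 CPM (log2 1.24 ± 0.41, edgeR adjusted p = 0.0153). The muscarinic receptors Chrm3 (log2 -2.19 ± 0.15) and Chrm2 (-2.64 ± 0.21) and the opioid receptor Oprm1 (-2.23 ± 0.22) were lower. Htr2c, a serotonin receptor, was at 159.7, 263, 372.5 and 311 CPM against 433 CPM (log2 -0.65 ± 0.10). Among 20 hormone and metabolic receptors 0 were higher and 11 lower, led by Ghr (-1.85 ± 0.15), Prlr (-2.71 ± 0.23), Thrb (-1.77 ± 0.15) and Nr3c2 (-1.35 ± 0.14). The insulin receptor Insr, at 102 to 127 CPM against 101.8 CPM, did not pass (log2 0.10 ± 0.14, adjusted p = 0.675).

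Ionotropic receptor subunits were uneven. Of 15 GABA receptor genes, 3 were higher and 9 lower, beside 8.0% and 12% of all genes. Gabra2 was at 1143, 1441, 1190 and 1477 CPM against 487 CPM (log2 1.42 ± 0.09), Gabrb1 was higher by less (0.64 ± 0.09), and Gabrg3 was at 77.7 to 261 CPM against 1025 CPM (-2.60 ± 0.12). Of 24 glutamate receptor genes, 6 were higher and 14 lower (8.0% and 12% of all genes). The NMDA subunit Grin3a (log2 1.39 ± 0.09) was higher, and Gria3 (-2.98 ± 0.15), Grin2a (-2.91 ± 0.16) and Grik1 (-2.79 ± 0.15) were lower.

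Histaminergic neurons fire spontaneously, shaped by a strong transient potassium current. Of 40 genes of pacemaking and calcium handling, 10 were higher and 18 lower, beside 8.0% and 12% of all genes. Ncald, a calcium sensor, was at 1520 to 1871 CPM against 261 CPM (log2 2.67 ± 0.09). Kcnd2, a subunit of transient potassium channels, was at 6858, 6758, 4890 and 6545 CPM against 2066 CPM (log2 1.58 ± 0.10). Trpc7 (1.64 ± 0.15) and the sodium channel Scn8a (0.88 ± 0.10) were higher, and Kcnq5 (-2.61 ± 0.13) and Kcnq3 (-2.26 ± 0.13), subunits of the M current, were lower.

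Of 43 hypothalamic transcription factors tested, 3 were higher and 20 lower, and the share of higher members was near the 8.0% of all genes (12% lower). Isl1 was at 140.5, 182, 162 and 168 CPM against 30.4 CPM (log2 2.43 ± 0.14, SE), and Tbx3 at 23.9 to 33.04 CPM against 3.56 CPM (3.01 ± 0.37), both factors of the ventral hypothalamus. Meis2 had no UMI in Hdc nuclei, at least 24.4-fold below the 56.4 CPM of other neurons. Zfhx3 (-1.38 ± 0.11) and Ebf1 (-3.62 ± 0.31) were lower, and all 9 Ebf1 UMIs came from ImP 3. Of 14 immediate early genes, Nr4a1 (1.28 ± 0.31) and Fosl2 (1.53 ± 0.40) were higher and Junb (-2.14 ± 0.41) and Btg2 (-1.21 ± 0.37) lower, shares of the list near those of all genes (8.0% and 12%). Nr4a1 and Junb passed in all 18 settings, Fosl2 in 15 and Btg2 in 14, the last being lost with DESeq2 (adjusted p = 0.0993), after thinning (0.344), without vehicle 2 (0.0649) and without ImP 4 (0.133). Fos, with 12 UMIs, did not pass (-1.03 ± 0.40, adjusted p = 0.0503).

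Many metabolic and housekeeping genes were lower in Hdc nuclei. This held for 67 of 78 cytosolic ribosomal protein genes (39 with DESeq2), 33 of 74 nuclear genes of oxidative phosphorylation (13 with DESeq2) and 12 of 13 mitochondrially encoded genes (11 with DESeq2), with no higher member in any of these lists. The median log2 fold changes were -0.65, -0.60 and -0.98, against -0.16 over all genes. Of all 18426 genes, 12% were lower in edgeR, and DESeq2 called 1228 lower. The median share of mitochondrially encoded UMIs per nucleus was 0.40% to 0.69% in Hdc nuclei and 0.93% to 1.22% in other neuronal nuclei. Oligodendrocyte and astrocyte markers were lower as well. Of 8 oligodendrocyte markers 7 were lower and 0 higher, at a summed 243 to 321 CPM against 446 to 709 CPM, and of 8 astrocyte markers 4 were lower, at 77.7 to 162 CPM against 199 to 308 CPM. The part of free RNA and of depth in these differences was not tested. The exception was Pdgfrb, a receptor that marks mural cells, at 51.1, 71.7, 57.1 and 60.4 CPM against a mean of 3.03 CPM (log2 4.31 ± 0.29). It was the only call among 8 vascular markers. Cldn5 and Rgs5 had no UMI in Hdc nuclei, and Flt1, Abcb1a, Vtn and Kcnj8 had 1 each. Pecam1, the last of the 8, also had UMIs. With Pdgfrb, the 8 markers summed to 57.5 to 77.7 CPM against 10.9 to 19.0 CPM.

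Counts of some genes also differed among Hdc nuclei. After thinning to 3000 UMIs in 174 nuclei, the median variance-to-mean ratio over 1973 genes with a mean of at least 0.3 UMIs was 1.09, close to the value of 1 that counting alone gives. Malat1, a nuclear noncoding RNA, had a ratio of 39.2. Gpc5, a glypican, had 0 UMIs in 148 of 174 nuclei and up to 33 in 1 nucleus (ratio 11.6), Ptprd had 0 in 112 and up to 23 (6.76), and Rbfox1 had 0 in 134 and up to 16 (6.54). Lrrtm4, a synaptic adhesion protein, was absent from only 4 thinned nuclei and ran up to 43 UMIs (6.08), and Kcnd2 was present in all of them with up to 46 UMIs (4.03). Gh was also in this group (6.38), with 112 UMIs in 1 nucleus of ImP 4 and at most 8 in each of the others before thinning. The ratios were not taken in other neuronal nuclei, so they show no trait particular to Hdc nuclei. Doublets were not called, and the part of doublets and of free RNA in this spread was not tested.

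The second comparison asked whether ImP changed the number of Hdc nuclei. They made up 0.445% of neuronal nuclei in vehicle 1 (exact 95% binomial interval 0.315% to 0.610%), 0.442% in vehicle 2 (0.324% to 0.589%), 0.442% in ImP 3 (0.330% to 0.581%) and 0.409% in ImP 4 (0.305% to 0.537%). The groups overlapped, the log2 ratio of the mean shares was -0.06, and the exact two-sided permutation test over libraries gave p = 0.667, where 0.333 is the smallest p that 2 against 2 libraries allow. These intervals cover counting error only. Because ImP nuclei were shallower, nuclei were also thinned to 3000 UMIs before the rule was applied, which left out nuclei under 3000 UMIs. It left 17, 24, 30 and 31 Hdc nuclei among 6506, 6805, 6882 and 7127 neuronal nuclei. Of other neuronal nuclei 2015 and 3580 were left out with vehicle and 4636 and 5303 with ImP, so these shares have another denominator. The shares were then 0.261% and 0.353% in vehicle and 0.436% and 0.435% in ImP, the direction turned (log2 ratio 0.50), and the exact permutation p was 0.333. Fewer nuclei and less Hdc RNA per nucleus cannot be told apart by a threshold on Hdc.

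**Figure D4:**
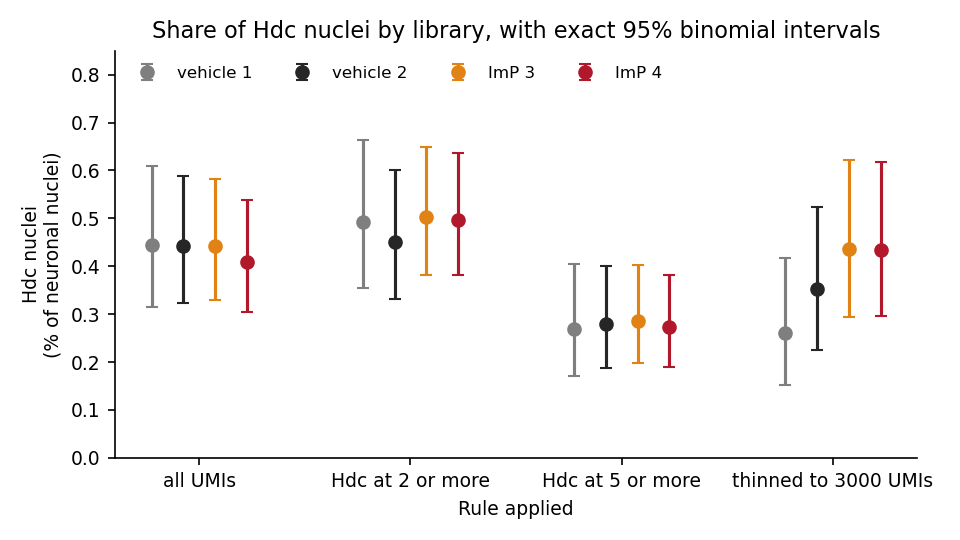
Hdc nuclei as a share of neuronal nuclei (vertical axis, %) in each library under 4 forms of the rule (horizontal axis), with exact 95% binomial intervals for counting error. Both vehicle and both ImP libraries overlap with all UMIs at 0.409% to 0.445%, and lie at 0.261% to 0.353% and 0.435% to 0.436% after thinning.

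The third comparison asked which genes ImP changed within Hdc nuclei, from the summed counts of 2 ImP and 2 vehicle libraries. Of 5941 genes tested, 0 passed an adjusted p of 0.05 in edgeR (0%). At an unadjusted p below 0.05, 223 genes were higher (3.75%) and 134 lower (2.26%) in ImP, and DESeq2 also called 0 genes, with 49 at an unadjusted p below 0.05. Both ImP libraries lay above both vehicle libraries for 1077 genes (18.1%) and below them for 1018 (17.1%). Leaving out any 1 library raised the count of calls to between 20 and 30, with the lone library of a group assumed to vary like the others, and a block for the first digits of the library names (111 for vehicle 1 and ImP 3, 113 for vehicle 2 and ImP 4) gave 8.

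Since no gene passed the test of ImP, no histamine or marker gene did, and those with few UMIs were below its filter. Maob was higher in both ImP libraries (303 and 299 CPM against 204 and 254 CPM, log2 0.38, adjusted p = 0.847), as was Hcrtr2 (904 and 842 CPM against 684 and 792 CPM, log2 0.23, adjusted p = 0.896). Of all genes tested, 18.1% lay higher in both ImP libraries and 17.1% lower in both. Slc18a2 (log2 -0.10), Wif1 (-0.08), Slc16a10 (0.05), Hrh3 (0.09), Maoa (0.12) and Gad1 (-0.32) had adjusted p-values of 0.877 to 0.983 in edgeR. Ddc and Slc7a5 were not tested. Their groups did not overlap, beside 18.1% and 17.1% of the tested genes, and their UMIs are too few to show a change with ImP. Ddc was at 19.2 and 8.97 CPM with vehicle and 3.004 and 3.18 CPM with ImP, on 6, 3, 1 and 1 UMIs, and Slc7a5 at 6.39 and 2.99 CPM against 15.02 and 9.53 CPM, on 2, 1, 5 and 3 UMIs. Hdc, on which the nuclei were selected, gives no comparison here.

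The 8 genes with the smallest p among those higher in both ImP libraries did not pass. In other settings some of them did, Kctd16 and Avp in 8 of 19, Trpm3 in 7, Dmd in 5, Rmst in 4 of 19, Hcrt in 4 of 17, Rtl4 in 3 of 16 and Timmdc1 in 1 of 19, and most of these settings left out a library or changed the filter on low counts. None passed with DESeq2 or, Rtl4 being below the filter, without the deepest 5% of nuclei. Trpm3, a cation channel, was at 86.2 and 62.8 CPM with vehicle, and at 216 and 203 CPM with ImP (log2 1.49 ± 0.24, SE, edgeR adjusted p = 0.0574). A single nucleus gave 36 of its 72 UMIs in ImP 3 and 15 of 21 in vehicle 2. Without nuclei holding glial UMIs its log2 fold change was 0.13 (adjusted p = 0.990), and over 19 settings it ran up to 1.71. Its level in other neurons was 690.3 and 725 CPM with vehicle, but 790 and 854 CPM with ImP. Kctd16, an auxiliary subunit of GABA-B receptors, was at 54.3 and 38.9 CPM with vehicle, and at 153 and 137 CPM with ImP (log2 1.63 ± 0.29, adjusted p = 0.0919), against 488 to 579.9 CPM in other neurons. Dmd, dystrophin, was at 307 and 212 CPM against 619 and 467 CPM (1.06 ± 0.21, adjusted p = 0.119), the noncoding Rmst at 192 and 254 CPM against 487 and 409.8 CPM (0.99 ± 0.20, adjusted p = 0.119), and Rtl4 at 28.7 and 14.9 CPM against 108 and 60.4 CPM (1.94 ± 0.44, adjusted p = 0.178). All 5 were lower in Hdc nuclei than in other neurons in every library.

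Avp and Hcrt, the precursors of vasopressin and orexin, were in the same group of 8. Avp was at 63.9 and 131 CPM with vehicle, and at 375.5 and 222 CPM with ImP (log2 1.59 ± 0.30, edgeR adjusted p = 0.0919), and 52 of its 125 UMIs in ImP 3 came from 1 nucleus. In other neurons Avp stood at 193 and 308 CPM with vehicle, and at 329.5 and 479.9 CPM with ImP. Hcrt was at 22.4 and 20.9 CPM with vehicle, and at 78.1 and 85.8 CPM with ImP (log2 1.89 ± 0.39, adjusted p = 0.119), and at 65.8 and 71.9 CPM against 116 and 139 CPM in other neurons. The share of oligodendrocyte nuclei with an Hcrt UMI was 20.9% and 23.2% in vehicle and 25.2% and 37.3% in ImP. Timmdc1, an assembly factor of respiratory complex I, was at 76.7 and 89.7 CPM against 162 and 194 CPM (1.08 ± 0.25, adjusted p = 0.178), while other neurons stayed between 101 and 116 CPM.

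Among genes lower in both ImP libraries, several were also high in Hdc nuclei, and none passed, though Npl did in 3 of 19 settings, Matn2 in 2, B230209E15Rik in 1 and Gm35019 in 2 of 17. The log2 fold change of Matn2 ran from -1.56 to -0.49 over settings, that of Npl from -1.53 to -0.53 and that of Sntg2 from -1.05 to -0.36, nearest to 0 after thinning for Matn2 and Sntg2 and without ImP 4 for Npl. Npl was at 281 and 251 CPM with vehicle, and at 186 and 92.1 CPM with ImP (log2 -0.93 ± 0.26, edgeR adjusted p = 0.399). Matn2, a matrix protein, was at 220.4 and 108 CPM against 75.1 and 73.1 CPM (-1.14 ± 0.31, adjusted p = 0.402), and the locus Gm35019 at 109 and 62.8 CPM against 42.1 and 19.1 CPM (-1.46 ± 0.41, adjusted p = 0.424). In other neurons these 3 genes were at no more than 21.0 CPM in any library. Tbcel (-1.14), Klhl3 (-1.15), Taf1d (-0.86), Sntg2 (-0.83) and B230209E15Rik (-0.80) had adjusted p-values of 0.424 to 0.570.

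**Figure D5:**
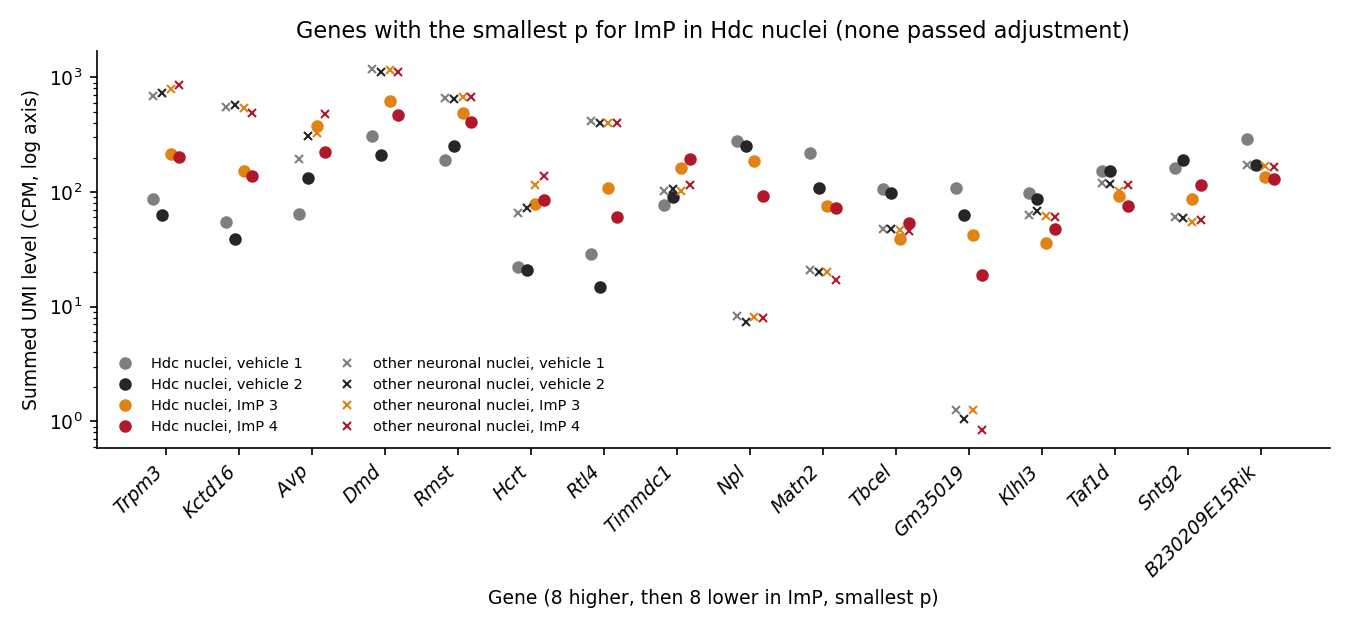
Level of the 16 genes with the smallest p for ImP in Hdc nuclei (summed UMIs in CPM, log axis), in Hdc nuclei (circles) and other neuronal nuclei (crosses) of each library. In Hdc nuclei the ImP libraries lie on one side of the vehicle libraries by the rule that chose the genes, and the adjusted p-values run from 0.0574 to 0.570.

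As 0 of the 5941 genes tested passed, no list could hold a call, and some of the 31 lists had no tested gene. The lists are therefore described by direction only. Of 65 cytosolic ribosomal protein genes tested, 40 lay higher in both ImP libraries and 1 lower, beside 18.1% and 17.1% of all genes, with a median log2 fold change of 0.47 against -0.01 over all genes. Their summed level in Hdc nuclei was 3517 and 4122 CPM with vehicle, but 5176 and 5242 CPM with ImP. In other neurons it was 5218 and 6558 CPM with vehicle, but 8098 and 8309 CPM with ImP. In the interaction test described below, of whether the ImP change differed between the populations, 0 of 78 genes passed. Of all genes, that test called 0.0979% higher and 0.00515% lower. With shares so low, 0 calls do not show that the change was alike in both populations. For nuclear genes of oxidative phosphorylation 14 of 44 lay above and 3 below (median 0.23), for peptide processing and secretion 8 of 14 above and 2 below (median 0.40), and for neuropeptides 5 of 9 above and 0 below (median 0.44). These lists were also higher in both ImP libraries in other neurons, where ImP nuclei were shallower, and the part of depth and of free RNA was not tested. Of 9 tested genes of the kinase and insulin pathways that ImP is reported to act on, 2 lay above and 1 below. Sqstm1, the autophagy adaptor p62, was at 156.5 and 128.5 CPM with vehicle, and at 96.1 and 89.0 CPM with ImP (log2 -0.63, adjusted p = 0.777).

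The fourth comparison asked whether the ImP change of a gene differed between Hdc nuclei and the other neurons of the same libraries, as an interaction in edgeR with library as a block over 19415 genes. At an unadjusted p below 0.05 there were 403 genes with a higher ImP change in Hdc nuclei (2.08%) and 293 with a lower one (1.51%). After adjustment it called 20 genes, 19 with a higher ImP change in Hdc nuclei (0.0979%) and 1, Oxt, with a lower one (0.00515%). None of the 20 was called without the deepest 5% of nuclei, after thinning or with DESeq2 (247 at an unadjusted p below 0.05), 5 genes were called without nuclei holding glial UMIs, and between 4 and 20 with 1 library left out (8 without vehicle 1, 4 without vehicle 2, 4 without ImP 3). In 19 of the 20 the mean level was lower in Hdc nuclei than in other neurons. This fit also assigned all genes a common spread, which makes its p-values small. Kctd16 led with a log2 difference of 1.77 ± 0.33 (SE, adjusted p = 0.000953). Sorcs3, a sorting receptor, was at 19.2 and 5.98 CPM with vehicle, and at 96.1 and 41.3 CPM with ImP in Hdc nuclei, on 6, 2, 32 and 13 UMIs, against 342 to 375 CPM in other neurons (2.48 ± 0.50, adjusted p = 0.00320). Dmd (1.08 ± 0.22), Mgat4c (1.33 ± 0.27) and Cntnap5b (2.09 ± 0.44) were next.

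Many of these UMIs lay in few nuclei. For Mgat4c, a glycosyltransferase, 1 nucleus gave 23 of 53 UMIs in vehicle 1 and another gave 43 of 104 in ImP 3. For Sorcs3 the largest nucleus of ImP 3 gave 10 of 32 UMIs, and for Cntnap5b 10 of 29. Oxt, oxytocin, was at 153 and 131 CPM with vehicle, and at 84.1 and 184 CPM with ImP in Hdc nuclei, with 39 of 48 UMIs of vehicle 1 in 1 nucleus, against 118 and 181 CPM and 253 and 316 CPM in other neurons (log2 difference -1.06 ± 0.26, adjusted p = 0.0428). None of Slc18a2, Maob, Hcrtr2, Wif1, Slc16a10, Maoa and Hrh3 passed this test, which called 0.0979% of all genes higher and 0.00515% lower.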

How the data were processed

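The authors deposited whole-number UMI counts per gene and barcode for 4 libraries, made with Cell Ranger 8.0.1, per the file headers. The build GRCm39 and Seurat 5.0.0 also stand in the submitters' processing notes, without a stated role for Seurat. Annotation release and intron handling are not stated in the labels. Nuclei were isolated with a 10x Genomics kit and sequenced from 3′ libraries, per the labels' protocols.

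No sample number is shared between vehicle and ImP, so no pairing was used. Nuclei were taken by the rule given above, doublets were not called, and counts were summed per library and population, since nuclei are not replicates. Total counts ran from 48060194 to 51945297 UMIs per library. Levels are CPM of these sums. Fits used edgeR 4.0.16 in R 4.3.3 with TMM factors, a minimum count of 10 (filterByExpr) and Benjamini-Hochberg adjustment at 0.05 over all genes, with DESeq2 1.42.0 as an alternative. The fits were tested on simulated counts with 2-fold and 4-fold changes put in. In the comparison with other neurons 25.6% and 56.3% of these passed. For ImP it was 35.2% and 90.3%, and for the interaction 5.38% and 22.3%. The simulated counts had 1 fixed spread for all genes, wider than the common spread fitted to the data. They also did not model UMIs that lie in single nuclei. These percentages therefore describe the simulation and not the data, and a gene that did not pass may still differ. SEs are the log2 fold change divided by the root of the F statistic. Hdc and Snhg11 were given without a test. Oligodendrocyte nuclei, used as a background for free RNA, had 0 Snhg11 UMIs, 1 or more of Mog and a further criterion that is not reported here.

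The members, the gene lists and the tests were chosen with earlier results of these data known. Named genes were all members of the histamine and tuberomammillary lists, the 15 highest and 8 lowest fold changes past the threshold at 100 CPM or more with 1 direction in all 4 libraries, the 8 smallest p-values per direction for ImP at 50 CPM or more without overlap between groups, up to 5 calls per direction of the interaction, and the list members with the smallest p. List members of known function were named beyond these after their values were seen. Alternatives changed the thresholds, filters, scaling, depth and libraries. Among the 33696 genes per file, 26 symbols stand for more than 1 identifier.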

Additional observations from a re-analysis of the deposited data

Results flagged for a closer look

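The ImP change differed between Hdc nuclei and the other neuronal nuclei of the same libraries for 20 genes by the interaction test of edgeR, and none of the 20 was called after thinning, without the deepest 5% of nuclei or with DESeq2. The adjusted p was 0.000953 for Kctd16, 0.00320 for Sorcs3, 0.00320 for Dmd and 0.00320 for Mgat4c. It was 0.00671 for Cntnap5b, 0.00671 for Fign and 0.00671 for Rtl4. It was 0.0114 for Ntm, 0.0116 for Ptprd and 0.0139 for Hepacam. Trpm3, Rmst, Gm32647 and Hs3st4 had adjusted p-values of 0.0153 each, Crebl2 had 0.0204 and Col23a1 had 0.0306. Grik1 and Oxt had 0.0428, Htr1f 0.0457 and Sgcz 0.0478.

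Hepacam, Col23a1 and Htr1f had no UMI in the vehicle Hdc nuclei and 20, 14 and 12 UMIs in the ImP Hdc nuclei, which makes their summed level at least 6.67-fold, 4.67-fold and 4.0-fold higher in ImP (3 counts over both vehicle libraries). These bounds pool both ImP libraries. Without ImP 3, Hepacam was at least 4.80-fold higher on 7 UMIs, and Col23a1 and Htr1f had 3 UMIs and 1 UMI and so no bound. For Col23a1 and Htr1f, 10 of the 11 UMIs of ImP 3 lay in 1 nucleus. Crebl2 alone of the 20 was at a higher mean level in Hdc nuclei (42.7 CPM) than in other neurons (35.4 CPM), and its largest nucleus held 2 UMIs in each ImP library, where 15 and 19 nuclei had a UMI of it. Its Hdc nuclei were at 19.2 and 14.9 CPM with vehicle, and at 57.1 and 79.4 CPM with ImP.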

How the results depend on the processing

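Depth and the number of libraries set the limits here. With 2 libraries per group, no share can reach an exact p below 0.333, and with 38 to 51 Hdc nuclei per library some genes had a large part of their UMIs in 1 nucleus. The number of genes that set Hdc nuclei apart went from 3684 to 2180 after thinning to 3000 UMIs, of which 2041 were called in both, and stayed within 1.5 times under every other alternative run (2904 to 3007 with 1 library left out). For ImP within Hdc nuclei, the count of 0 became 29 with no filter on low counts, 5 with a minimum count of 30, 2 with an Hdc threshold of 5 UMIs, 2 without nuclei with glial UMIs, 20 to 30 with 1 library left out, and 8 with the library-name digits as a replicate block. The vehicle and ImP libraries share no replicate number, so this block is the only pairing the labels allow. For the interaction, the count of 20 became 13 and 4 with Hdc thresholds of 2 and 5 UMIs, 5 without nuclei with glial UMIs, 4 to 20 with 1 library left out, and 0 without the deepest 5%, after thinning or with DESeq2. The requirement of 3 of 5 other markers, chosen after seeing the data, gave 3535, 0 and 17 calls in the 3 comparisons. The log2 ratio of shares turned from -0.06 to 0.084 and 0.028 with Hdc thresholds of 2 and 5 UMIs and to 0.50 after thinning, and ran from -0.12 to -0.0037 with 1 library left out.

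Single genes changed sign only where they did not pass, except for Oxt and Trpm3. In the comparison with other neurons, the log2 fold change of Slc18a1 went to 0.26 after thinning and ran from -1.49 to 0.037 with 1 library left out, that of Slc7a5 ran from -0.60 to 0.078, and that of Hnmt went to 0.061 after thinning. Aldh7a1, at 0.022, went to -0.018 and -0.23 with Hdc thresholds of 2 and 5 UMIs, -0.010 with 1000 genes per nucleus, -0.089 with 3 of 5 other markers and -0.036 with no filter, and ran from -0.11 to 0.107 with 1 library left out. In the interaction, Oxt went from -1.06 to 0.049 after thinning and Trpm3 from 1.27 to -0.049 without nuclei with glial UMIs. The cause of these changes was not tested.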
